A study of Mus musculus with 2 samples.

Results

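The melanoma cells described here were 167 of the 14899 cells in a single-cell whole transcriptome library made from subcutaneous B16F10 tumours. B16F10 is a transplantable, pigmented melanoma line of the C57BL/6 mouse. They were chosen by a gate on measured molecules. A cell was kept when its Dct, Pmel, Mlana and Tyrp1 molecules summed to at least 50 and made up at least 0.5% of its molecules, when it held at most 2 molecules of Ptprc, the gene of the leukocyte antigen CD45, and when 200 or more genes were detected in it and no more than 25% of its molecules were mitochondrial. Cells with an undetermined sample tag were kept and cells tagged as multiplets were not. Of the 167 cells, 34 carried tag 8, 25 tag 9 and 26 tag 10, and 82 had an undetermined tag.

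The tumours had grown from wildtype (WT), Tyr knockout or Oca2 knockout B16F10 cells in female C57BL/6 mice, with 3 mice for each of the 3 tumour genotypes. The ages of the mice were not given in the sources used here. Single-cell suspensions were sorted for CD45, the tumours of a genotype shared a sample tag, and the tagged cells were captured together in 1 run, so the mice of a genotype were pooled under 1 tag. The labels do not say which tag marks which genotype, or whether a knockout line is 1 clone. The labels describe all the cells as immune cells from the tumours. No genotype was given to a tag, and no value was tested between tags.

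Melanocytes come from the neural crest and make melanin in a lysosome-related organelle, the melanosome. The transcription factors SOX10 and PAX3 drive MITF, and MITF in turn drives the genes of melanin synthesis, melanosome structure and melanosome transport. Tyrosinase (Tyr), TYRP1 and DCT are the enzymes that turn tyrosine into melanin, PMEL forms the fibrils on which it is laid down, and the proteins of Oca2, Slc45a2, Slc24a5 and Gpr143 are melanosomal membrane proteins that set its pH, ion content and size. Melanoma cells can keep this programme or lose it in favour of a neural crest-like or dedifferentiated state.

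MITF binds the letters CATGTG, which on the other strand read CACATG, so the bases before the start of the pigment genes are shown first. Of the 4 gate genes and the 5 other pigment genes, 5 had a promoter in the RefSeq table of GRCm38.p6, and these letters stood in the 250 bases upstream of the start of all 5. The letters were found in 4025 of all 32851 promoters of that length (12.3%). They stood in 255 of the 2493 promoters of genes higher in the gated cells than in leukocytes by the rule given below (10.2%), in 200 of 1667 of genes lower (12.0%) and in 890 of 9558 of all genes compared (9.31%). A match is a description of the sequence and not evidence of binding. The sequences run 5′ to 3′ on the strand of the gene, with the matched letters in capitals. They are the promoters of Dct (chr14:118052247-118052496, minus strand), Tyrp1 (chr4:80833963-80834212, plus strand), Tyr (chr7:87493513-87493762, minus strand), Oca2 (chr7:56239509-56239758, plus strand) and Slc24a5 (chr2:125067877-125068126, plus strand).
Dct: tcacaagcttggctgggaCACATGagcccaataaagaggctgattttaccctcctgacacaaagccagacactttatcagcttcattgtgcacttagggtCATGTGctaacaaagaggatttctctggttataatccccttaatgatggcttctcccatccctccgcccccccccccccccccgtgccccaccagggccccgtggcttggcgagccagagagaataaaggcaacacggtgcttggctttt
Tyrp1: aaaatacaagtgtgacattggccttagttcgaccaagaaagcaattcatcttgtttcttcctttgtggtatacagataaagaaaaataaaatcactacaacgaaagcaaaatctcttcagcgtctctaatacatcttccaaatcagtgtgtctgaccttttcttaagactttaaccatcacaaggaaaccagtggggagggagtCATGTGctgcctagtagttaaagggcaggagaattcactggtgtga
Tyr: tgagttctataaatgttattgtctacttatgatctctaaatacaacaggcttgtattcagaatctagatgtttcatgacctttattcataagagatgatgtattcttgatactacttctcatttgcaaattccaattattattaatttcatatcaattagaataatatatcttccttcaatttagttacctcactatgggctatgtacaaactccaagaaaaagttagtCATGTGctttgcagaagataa
Oca2: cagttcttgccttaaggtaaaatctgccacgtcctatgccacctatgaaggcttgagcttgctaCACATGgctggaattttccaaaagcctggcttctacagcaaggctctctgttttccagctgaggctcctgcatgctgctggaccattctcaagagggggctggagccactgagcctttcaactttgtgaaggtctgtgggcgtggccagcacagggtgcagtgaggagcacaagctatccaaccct
Slc24a5: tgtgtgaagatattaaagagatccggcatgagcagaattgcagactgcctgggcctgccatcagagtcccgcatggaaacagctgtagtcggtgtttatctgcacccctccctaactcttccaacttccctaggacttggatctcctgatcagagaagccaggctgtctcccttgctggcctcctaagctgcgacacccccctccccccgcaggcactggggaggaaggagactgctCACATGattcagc
Counted from the RefSeq start of the gene, the letters began at -232 and -150 in Dct, -46 in Tyrp1, -21 in Tyr, -186 in Oca2 and -13 in Slc24a5. In the GENCODE annotation Tyrp1 starts at 80834123, inside the stretch shown, which places its letters after that start.

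The values that chose the cells are given as a description. The gated cells held a median of 1025 molecules of the 4 gate genes, from 50 to 2355, which made up a median of 1.99% of their molecules, from 0.649% to 9.04%. The cells nearest to the limit had 50, 54 and 57 such molecules inside the gate and 49, 48 and 48 outside, and no cell was left out by the share alone. The median depth was 61326, 59829 and 71159.5 molecules per cell in tags 8, 9 and 10 and 41874.5 in the undetermined cells. Leukocytes of the same tags, defined as cells with at least 1 Ptprc molecule and a pigment sum or share below the gate, numbered 2575, 2772 and 2988 and had medians of 3986, 4532.5 and 4235 molecules. The minimum of 50 pigment molecules keeps out shallow cells, so this difference in depth is in part set by the rule. That minimum alone left out 39 cells with at least 10 pigment molecules. The gated cells had a median of 6873 detected genes and 7.43% mitochondrial molecules, and 19 of them had fewer than 5000 molecules. Ptprc was at 0 in 111 gated cells, at 1 in 41 and at 2 in 15, although the suspension had been sorted for CD45.

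**Figure D1:**
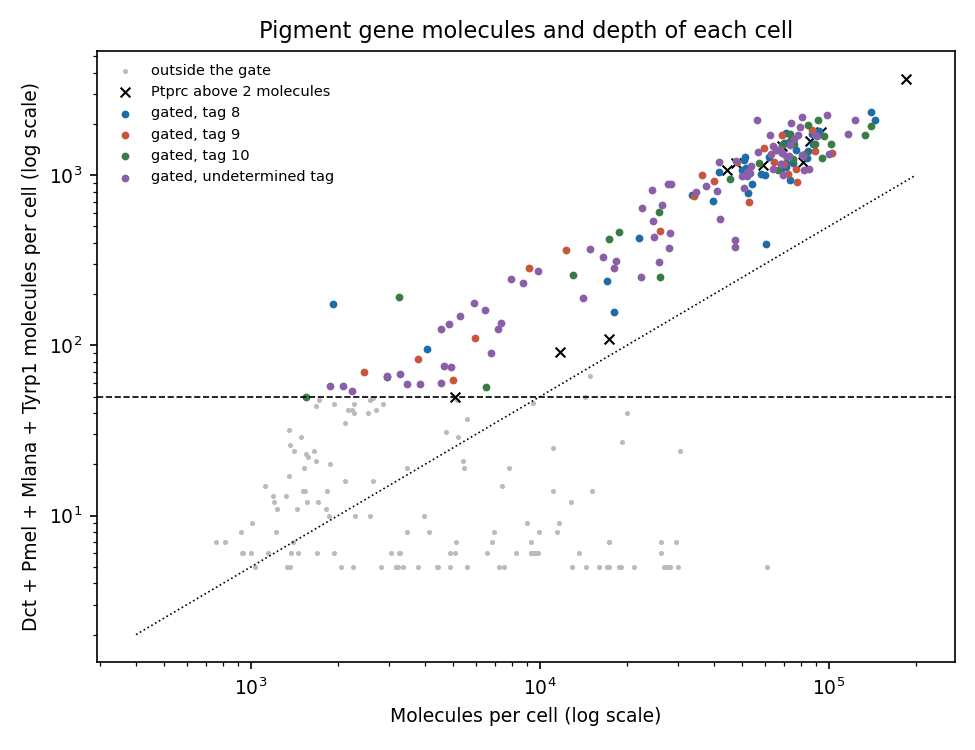
Each point is a cell that passed the quality filters and held at least 5 pigment molecules, by its total molecules (horizontal, log scale) and its Dct, Pmel, Mlana and Tyrp1 molecules (vertical, log scale). The dashed line is the minimum of 50 molecules and the dotted line the share of 0.5%; gated cells are coloured by tag, and most lie far above both lines, while the crosses are 11 cells set aside for Ptprc.

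The tag was missing far more often from the gated cells than from leukocytes. With multiplets added, 168 cells met the limits on pigment, quality and Ptprc. Of these, 82 had an undetermined tag (48.8%, exact Clopper-Pearson 95% interval 41.0% to 56.6%), against 28 of 9477 leukocytes (0.295%, 0.196% to 0.427%) and 65 of 2279 cells without Ptprc outside the gate (2.85%, 2.21% to 3.62%). Intervals here and below cover counting error only, since cells of 1 capture are not replicates. The difference was also present in deep cells. Among cells of at least 20000 molecules, 56 of 124 gated cells (45.2%) and 1 of 388 leukocytes (0.258%) were undetermined, with median depths of 68023.5 and 24636.5 molecules. Among shallower gated cells 26 of 44 (59.1%) were undetermined, and shallower leukocytes were not counted apart. Read the other way, the 82 gated cells were 46.9% of the 175 undetermined cells that passed the quality filters. Multiplet calls went the opposite way, with 1 of 168 cells in the gate (0.595%) and 1114 of 9477 leukocytes (11.8%), and above 20000 molecules 0 of 124 (interval up to 2.93%) and 83 of 388 (21.4%). The limit on Ptprc itself removes doublets with leukocytes, and before it 3 of 181 pigment-rich cells that passed the quality filters were multiplets. A doublet of cells with the same tag carries no multiplet call, and how many there were was not estimated. A cell called undetermined is not called a multiplet either, and 82 of the 168 cells were undetermined. The multiplet share is therefore no measure of the doublets among gated cells.

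**Figure D2:**
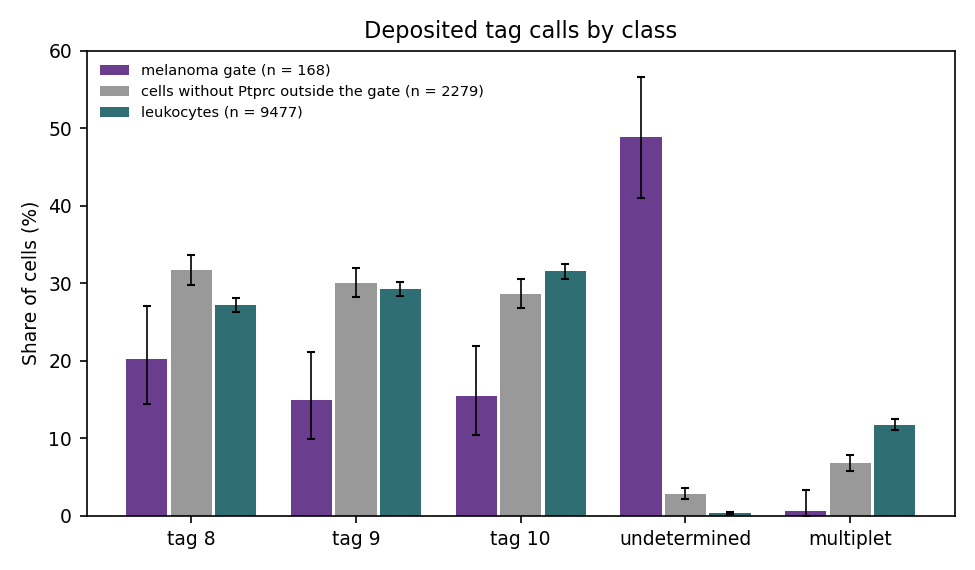
Share of cells (percent) with each deposited tag call among cells of the melanoma gate, cells without Ptprc outside the gate and leukocytes; bars start at 0 and whiskers are exact 95% Clopper-Pearson intervals. The undetermined share is 48.8% in the gate and 0.295% in leukocytes, while the multiplet share is 0.595% and 11.8%.

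To describe what the gated cells express, molecules were summed over the cells of a class in each tag and scaled to 1000000 (CPM, a count of molecules not scaled by gene length). The log2 ratio of the gated cells to leukocytes was taken within each tag. A gene was called higher or lower when the ratio was at least 2-fold in that direction in each of the 3 tags. Since the gate was drawn on these same counts, this contrast is a description and has no test. Each ratio is a median of 3 tags, followed in parentheses by the lowest and highest tag. Of 12222 genes with at least 30 molecules and a ratio in every tag, 3128 were higher (25.6%) and 2216 lower (18.1%). The ratio of the median gene was 0.37 by CPM. It was -0.24 with TMM factors, which scale on the bulk of the genes. The share of higher among the called genes was therefore 58.5% by CPM, 45.6% when ratios were centred on the median gene and 37.9% with TMM factors. Each list median below stands beside the 0.37 of all genes. A count of 0 entered as 3 counts, so a ratio with a tag at 0 is a bound. Where TMM factors or a comparison with C1q macrophages or T cells alone ended the call of a named gene, the value is given beside it. In cells thinned to 1000 molecules, 33 of 267 named genes lost their call and 96 had no value.

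Tyr and Oca2, the knocked-out genes, come before the others. Tyr had 665 (631 to 701), 690.1 (645 to 738) and 674 (634 to 716) CPM in tags 8, 9 and 10 (exact 95% Poisson intervals) and 629 (603 to 656) in the undetermined cells, so the 4 values lay close together. Leukocytes had 2.17, 2.67 and 2.16 CPM. Oca2 had 41.4 (33.2 to 51.1), 55.5 (43.2 to 70.1) and 30.6 (22.6 to 40.6) CPM, with 54.2 (46.8 to 62.4) in the undetermined cells, and was lowest in tag 10, where the interval overlapped that of tag 8 but not those of tag 9 and the undetermined cells. The assay counts the 3′ end of a transcript and the labels do not place the edit, so these levels check nothing about the knockouts. Single cells were read at equal depth. With each cell thinned to 5000 molecules, Tyr was found in 28 of 32 cells of tag 8 (87.5%), 21 of 23 of tag 9 (91.3%), 17 of 23 of tag 10 (73.9%) and 65 of 70 undetermined cells (92.9%), with intervals that overlapped. Oca2 was found in 7 of 32, 7 of 23, 2 of 23 and 14 of 70.

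All 5 pigment enzymes and transporters outside the gate were higher in the gated cells, with a list median of 8.26. Slc45a2, a melanosomal transporter, had 1001, 1162, 1053 and 1169 CPM in tags 8, 9 and 10 and the undetermined cells, against 2.55, 3.18 and 3.09 in leukocytes, a log2 ratio of 8.51 (8.41 to 8.62). Slc24a5, an exchanger of the same organelle, had 785, 866, 812 and 878 CPM and a ratio of 8.59 (8.14 to 8.73). Gpr143, the ocular albinism receptor of the melanosome, had 23.3, 23.8, 21.1 and 30.6 CPM, and leukocytes of tags 9 and 10 had none. No tag or leukocyte value of these genes overlapped between the classes. The call of higher was also met by 25.6% of all genes compared. The gate genes themselves had 8349, 9313, 9325 and 9571 CPM (Dct), 3529, 3698, 3201 and 3819 (Pmel), 1575, 1221, 1269 and 1479 (Mlana) and 4437, 4507, 4254 and 4895 (Tyrp1). In leukocytes the 4 gate genes and the 5 others came to 70.2, 70.0 and 70.5 CPM in sum, against 20405, 21537 and 20639 in the gated cells, and the median ratios of the 9 genes lay between 7.12, the bound for Gpr143, and 8.59. The source of these molecules in leukocytes was not tested.

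Of 18 genes of melanosome biogenesis and transport, 7 were higher, none was lower, and the median was 0.82. With T cells as the only comparator 11 were higher and the median was 1.36. The higher members included the transport chain RAB27A, melanophilin and myosin Va, with Mlph at 247, 189, 202 and 235 CPM against 1.21, 1.25 and 2.16 (ratio 7.24, 6.55 to 7.67), Rab27a at a ratio of 2.47 (2.41 to 2.69) and Myo5a at 1.62 (1.44 to 1.97). Rab38, a small GTPase that carries enzymes to the melanosome, had 423, 412, 402 and 386 CPM against 2.29, 1.99 and 1.9, a ratio of 7.70 (7.53 to 7.72). Its relative Rab32 stood at -0.63 (-0.92 to -0.28), which was not 2-fold in any tag. Bace2, the protease that cuts PMEL, was higher at 6.53 (6.28 to 7.72), and so were Gpnmb, a melanosomal and lysosomal glycoprotein, at 5.27 (4.78 to 5.40) and the tetraspanin gene Cd63 at 2.02 (1.996 to 2.45). The 11 others, among them the AP-3 subunit genes Ap3b1 (-0.38) and Ap3d1 (0.56), Lyst (-0.22) and Hps1 (-0.18), genes of lysosome-related organelle biogenesis and trafficking, did not reach 2-fold in all tags. Myo5a lost its call against C1q macrophages alone, at 0.89, and with TMM factors, at 1.04, and against T cells alone Rab32 turned to 2.15.

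Of 9 lineage transcription factors compared, 6 were higher and 3 lower, with a median of 4.61. Sox10, one of the label's markers and no gene of the gate's sum, had 336 (312 to 362), 312 (282 to 345) and 398 (368 to 431) CPM in tags 8, 9 and 10 and 319.8 in the undetermined cells, against 2.1, 2.22 and 3.09 in leukocytes, a ratio of 7.14 (7.01 to 7.32). Mitf had 499 (469.6 to 531), 742 (696 to 792) and 701 (660.2 to 744) CPM and 609 in the undetermined cells against 29.9, 21.2 and 28.7, and was lowest in tag 8, where its interval did not overlap the others. Macrophages also use Mitf, with 49.96 CPM in C1q macrophages and 3.52 in T cells. Pax3 stood at 7.30 (7.22 to 7.52), Tfap2a, a neural crest factor, at 6.89 (6.31 to 7.52) and Sox9, a relative of Sox10, at 5.71 (4.42 to 6.89). Snai2 was higher from few molecules, with 7.62, 7.13, 1.92 and 3.12 CPM, and its call ended against T cells alone, at 3.36, where 1 tag did not reach 2-fold. Zeb2, a repressor that melanocytes and macrophages share, had 122, 139 and 97.1 CPM against 378, 335 and 305 and was lower at -1.63 (-1.65 to -1.27), but stood at 0.85 against T cells alone. Zeb1 was at 1.43, 0.792 and 1.92 CPM and Lef1 at 0, 3.17 and 0, both lower than in leukocytes. Depth matters for single cells here. Thinned to 1000 molecules, 18.6% of gated cells held a Sox10 molecule and 38.9% a Mitf molecule, against 0.368% and 2.03% of leukocytes, and unthinned 87.4% and 90.4%.

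**Figure D3:**
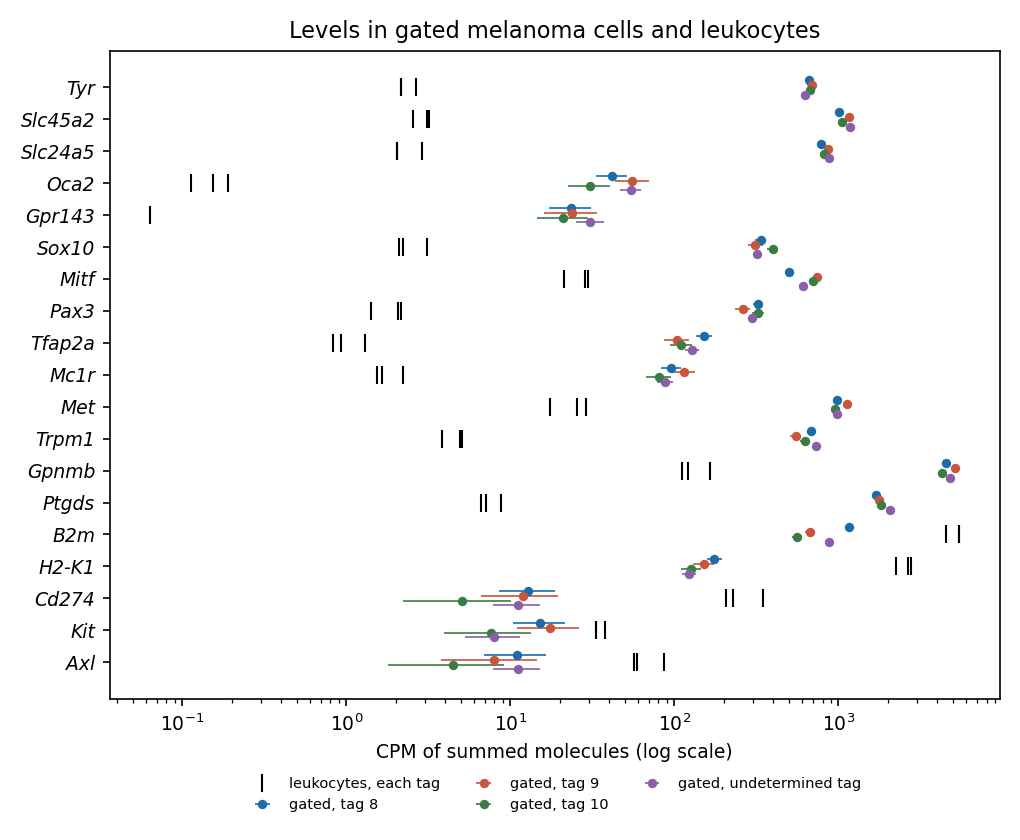
CPM of summed molecules (log scale) for 19 genes in gated cells of tags 8, 9 and 10 and of undetermined tag (circles, with exact 95% Poisson intervals) and in leukocytes of each tag (vertical strokes, which can coincide; values of 0, as for Gpr143 in 2 tags, are not drawn). Pigment, lineage and receptor genes at the top lie to the right of the leukocytes, and B2m, H2-K1, Cd274, Kit and Axl lie to the left.

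Of 7 receptors compared, 4 were higher and 3 lower. Mc1r, the melanocortin receptor that raises pigment synthesis, had 95.2, 114, 80.5 and 87.7 CPM against 2.23, 1.53 and 1.65 (ratio 5.61, 5.42 to 6.22). Met, the hepatocyte growth factor receptor, stood at 5.48 (5.08 to 5.78), with 982, 1132, 951 and 976 CPM, Trpm1, a melanocyte ion channel gene, at 7.09 (6.95 to 7.17), and Erbb3, a neuregulin receptor, at 3.06 (2.22 to 3.22). Kit and Ednrb, receptors for melanocyte growth factors, were lower, with 15.2, 17.4 and 7.66 CPM of Kit against 33.5, 37.8 and 33.3 and 2, 2 and 0 molecules of Ednrb in the 3 tags. Kit turned to 1.68 against C1q macrophages alone, and was not called against T cells, at -0.60. Axl, Ngfr and Egfr mark dedifferentiated melanoma cells. Axl had 10.9, 7.92 and 4.47 CPM and was lower at -2.89 (-4.28 to -2.38), though at -1.06 and not called against T cells alone. Ngfr had 1 molecule in all 167 cells and Egfr none.

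Genes that MITF is known to drive outside pigment synthesis were mostly higher, 5 of 7 compared, Met among them, with a median of 2.77. Ppargc1a, the coactivator of mitochondrial biogenesis, had 319.9, 417, 481 and 362 CPM against 2.29, 3.01 and 3.5, a ratio of 7.11 (7.10 to 7.12) that varied little between tags. Tbc1d16, a regulator of receptor transport, stood at 2.77 (2.35 to 3.45), while Bcl2 (0.11) and Hif1a (-0.18) were near the leukocyte level. Apex1, a DNA repair enzyme gene, was higher at 1.40 (1.05 to 1.41) but at 0.81 with TMM factors and 0.92 against T cells. Cdk2 was called higher at 4.27 (4.02 to 4.60), with 647, 568 and 813 CPM. It overlaps the gate gene Pmel by 837 bases on the opposite strand (Cdk2 at 128697939 to 128705031 and Pmel at 128704195 to 128720238 on chromosome 10, GRCm38). The overlap lies at the 5′ ends of both genes, and whether it moved molecules between them was not tested.

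Neural crest and glial genes were also present, 6 of 7 higher with a median of 4.86. S100b, a calcium-binding protein used as a melanoma marker, had 125, 167, 160.3 and 163 CPM against 1.21, 0.511 and 0.875 (ratio 7.52, 6.69 to 8.35), and S100a1 stood at 3.30 (3.03 to 3.62). Gjc3, a glial connexin gene, had 42.4, 99.8, 64.5 and 64.7 CPM and a ratio of 8.46 (6.06 to 8.71). Nes, the intermediate filament gene of neural progenitors, stood at 4.86 (3.36 to 5.75). The myelin gene Mbp was higher at 1.14 (1.01 to 1.79) but lost its call with TMM factors, at 0.56, and against T cells, at 0.60, and Cnp was lower at -2.47 (-2.94 to -2.12).

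Several genes with the largest ratios lie outside the pigment programme. The rule for the 10 largest named, beside Slc24a5, Slc45a2 and Gjc3, Nppb, Cck, Tspan10, Syt4, Gm3776, Gm10639 and A830019P07Rik. Nppb, which encodes a natriuretic peptide precursor, had 52.8, 49.9, 42.1 and 40.01 CPM against 0.127, 0.114 and 0.154 (ratio 8.70, 8.09 to 8.78). Tspan10, a tetraspanin gene, had 418, 452, 449 and 435 CPM (ratio 8.64, 8.04 to 8.92) and Syt4, a synaptotagmin gene, 1343, 1668, 1684 and 1413 (ratio 8.29, 7.73 to 8.34). Gm3776 and Gm10639 are predicted protein-coding genes on chromosome 9 (78257129 to 78269166 and 78289923 to 78305525 on the plus strand, GRCm38) and stood at 8.66 and 8.39. They lie between Gsta1 (78230656 to 78242684) and Gsta2 (78331018 to 78355788), genes of alpha-class glutathione S-transferases, whose values were looked up after those of Gm3776 and Gm10639 were seen. Gsta1 had 31.9, 27.7 and 28.7 CPM and a ratio of 7.93, Gsta2 59.0, 82.4 and 82.4 CPM and 8.27, and the neighbouring Gsta4 151, 152 and 185 CPM and 7.51. The 5 genes may share reads, so the split between them is uncertain. Gsta3, on chromosome 1, had 3 molecules in all gated cells.

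Few cells held most of the Cck molecules. Cck, the gene of cholecystokinin, had 324, 423, 606 and 363 CPM, but 124 of the 167 cells held no molecule, 1 undetermined cell held 1092 of the 3443 molecules, and the 5 highest cells (of all 4 tag groups) held 69.7%. Thinned to 5000 molecules, it was seen in 24 of 148 cells (16.2%, 10.7% to 23.2%), between 12.9% and 21.9% in each tag group. Among the 148 cells it had a variance of 26.1 times its mean, against 1.72 for Tyr and 1.45 for Sox10. Of the genes named for the largest such ratio, 5 are mitochondrial, led by mt-Co1 at 33.9, and the others besides Cck are Gpnmb (15.2), Lgals3 (11.4), Ptgds (10.8) and B2m (9.71). Ptgds, the prostaglandin D synthase gene, had 1697, 1762, 1808 and 2060.4 CPM, a ratio of 7.96 (7.69 to 8.001), and a molecule in all 167 cells. Lgals3, the galectin-3 gene, was found in 160 cells, with up to 512 molecules in 1 cell and a median of 14.

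Of 12 mitosis genes, 10 were higher than in leukocytes, with a median of 2.63. Plk1, a mitotic kinase gene, had 51.4, 51.5, 47.9 and 41.7 CPM against 5.54, 5.45 and 4.53 (ratio 3.24, 3.21 to 3.40), Aurkb, another, stood at 3.41 (1.88 to 3.42), but at 2.04 and not called against T cells, and Ccnb1, cyclin B1, at 2.58 (2.57 to 2.81). Mki67, the proliferation marker, had 162, 102 and 159 CPM against 101, 120.1 and 99.2 and was not called. Of 10 replication genes, 3 were higher, Mcm2, a helicase subunit gene, at 3.04 (2.22 to 3.27), Rrm2, of ribonucleotide reductase, at 3.47 (2.05 to 4.29) and Tyms, thymidylate synthase, at 1.78 (1.05 to 2.63). Rrm2 and Tyms were not called against T cells, at 2.003 and 0.29, nor Tyms with TMM factors, at 1.20. These 3 of 10 lie near the 25.6% of all genes compared. Without tag 9, 6 were higher. The summed level of the list in tag 9 was 982 CPM, against 1839 in tag 8, 1917 in tag 10 and 1234.5 in the undetermined cells. The comparator mattered here, since Mki67 had 216 CPM in T cells and 60.4 in C1q macrophages. Against T cells alone 4 mitosis genes and 1 replication gene were higher and the median of the replication list was -0.14, while against C1q macrophages 11 and 8 were higher.

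Cell by cell, at 5000 molecules, 20 of 148 cells held at least 10 replication molecules only (13.5%), 25 at least 10 mitosis molecules only (16.9%), 20 both (13.5%) and 83 neither (56.1%). The gate genes had medians of 77 molecules in the replication cells, 117 in the mitosis cells, 73.5 in cells with both and 105 in cells with neither, and the glycolysis and hypoxia genes 97.5, 87, 77.5 and 126. Across the 148 cells, which share 1 library, the rank correlation was 0.59 between replication and mitosis molecules, -0.38 between replication and gate molecules and -0.32 between replication and glycolysis molecules. These are descriptions of thinned counts of one total. In such counts more of some genes leaves less room for others, and how far this matters here was not tested.

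Of the brakes on the cycle, Cdkn2a and Cdkn2b, inhibitors of the G1 kinases, had 0 molecules in all gated cells, where 3 molecules would be 0.355 CPM. Leukocytes had 237 and 35 molecules of them. Cdkn2c, another inhibitor of the family, was higher at 2.99 (2.10 to 3.04), but not called against T cells, at 1.86. Cdkn1a, a p53 target, was lower at -2.08 (-2.22 to -1.99) and Mdm2, the p53 ligase and p53 target, at -1.87 (-2.28 to -1.78). Against T cells alone these stood at -0.003 and -0.49 and were no longer called. Trp53 (0.32) and Cdkn1b (0.42) did not reach 2-fold. Of the genes that report MAPK signalling, 3 of 11 were higher and 1 lower than in leukocytes, with a median of 0.35, which turned to -0.27 with TMM factors. The share of higher genes lies near the 25.6% of all genes compared. Against T cells alone 5 of 10 were higher and none lower, with a median of 1.23. Dusp4, a MAPK phosphatase, stood at 1.85 (1.55 to 1.95), but at 1.27 and not called with TMM factors and at 0.12 against T cells alone, Spry4, a feedback inhibitor, at 3.01 (2.59 to 3.01) and Ccnd1, cyclin D1, at 0.35.

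Genes of antigen presentation by MHC class I were low in the gated cells. Of 14 genes, 11 were lower than in leukocytes, and the list median was -3.85. H2-K1, a class I heavy chain, had 175 (158 to 194), 151 (131 to 174) and 126 (109 to 145) CPM in tags 8, 9 and 10 and 123 in the undetermined cells, against 2240.3, 2673 and 2756 in leukocytes, a ratio of -4.14 (-4.45 to -3.68). H2-D1 stood at -3.82 (-4.39 to -3.28). B2m, the shared light chain, had 1158 (1112 to 1205), 671 (627 to 718) and 561 (525 to 599.6) CPM and 872 in the undetermined cells against 4524, 5429.7 and 5455, a ratio of -3.02 (-3.28 to -1.97), and tag 8 stood above the others. The peptide transporter gene Tap1 stood at -4.94 (-5.82 to -2.58), the immunoproteasome gene Psmb8 at -5.50 (-6.22 to -3.43) and Nlrc5, the transactivator of class I genes, at -4.74 (-5.03 to -4.03). The chaperone genes of the endoplasmic reticulum differed from these. Calr had -0.10, Pdia3 0.63, and Canx was higher at 1.30 (1.29 to 1.36), though at 0.69 with TMM factors. The 11 calls of lower genes were as many against C1q macrophages or T cells alone.

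Interferon response genes were low as well. Of 20 genes, 15 were lower, none was higher, and the median was -3.74. Irf7, a factor of the type I response, had 3.33, 2.38, 1.28 and 1.99 CPM against 116, 124 and 160.4 (ratio -5.71, -6.97 to -5.12), Isg15 stood at -4.76 (-5.18 to -3.52), Ifit1 at -4.71 (-5.57 to -4.20) and Cxcl9, a chemokine gene induced by interferon gamma, at -7.37 (-8.96 to -5.12). Among the receptors and kinases, Ifngr1 was lower at -3.86 (-4.66 to -3.59), Ifnar2 at -1.86 (-2.58 to -1.85), but at -0.82 and not called against T cells, Jak1 at -2.02 (-2.13 to -1.86) and Jak2 at -3.35 (-3.45 to -3.12), while Ifngr2 (-0.52) and Ifnar1 (-1.54) were not called. Gbp2, a GTPase of the interferon gamma response, had 77.1, 9.51, 1.28 and 25.8 CPM against 99.5, 333 and 216 and was not called, since tag 8 did not reach 2-fold. Against T cells alone Ifitm3 turned to 0.20, and 14 genes were lower. Beside these, the 19 leukocyte markers compared stood at a median of -6.15, and the part of carried-over leukocyte transcripts in these levels was not tested.

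A few cells held much of the interferon signal. The 10 cells with most interferon molecules per molecule, among those of at least 5000, were 4 of tag 8, 1 of tag 10 and 5 undetermined, and held 86.2 to 25.1 interferon molecules per 10000. The median of the 148 cells was 2.70, and the highest cell of tag 9 had 22.9. For Gbp2, 3 cells held 71, 66 and 55 of the 267 molecules and 133 cells held none. The same 10 cells had 3984 CPM of B2m against 672 in the 138 others, 645 against 111 of H2-K1, 99.6 against 4.28 of Tap1 and 788 against 28.7 of Cxcl10. The 10 cells were chosen by genes of this response, so the interferon differences are fixed by the choice. Their leukocyte marker molecules were 2.70 per 10000 in the median, from 0 to 6.09, against 2.16, from 0 to 16.7, in the others, and Lyz2, a myeloid gene, had 20.4 against 22.6 CPM, while Cd74, an MHC class II chaperone gene on the same marker list, had 92.8 against 55.7 CPM. Their Dct level was 7499 against 9244 CPM. The rank correlation of interferon with MHC class I molecules over the 148 cells was 0.44.

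The levels without those 10 cells are given as a description, since a fall in the tags that held them is fixed by their choice. The 14 response genes counted in single cells had 772 CPM in tag 8, 338 in tag 9, 317 in tag 10 and 593 in the undetermined cells, and without the 10 cells 325, 338, 273 and 355. The 11 MHC class I genes counted had 1886, 1169.5, 959 and 1390.3 CPM, and then 1183, 1169.5, 867 and 1166. Gbp2 in tag 8 went from 77.1 to 6.61 CPM and B2m from 1158 to 764. With the 10 cells left out, an alternative chosen after seeing the data, 18 of the 20 interferon genes were lower than in leukocytes and again 11 of the 14 MHC class I genes.

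**Figure D4:**
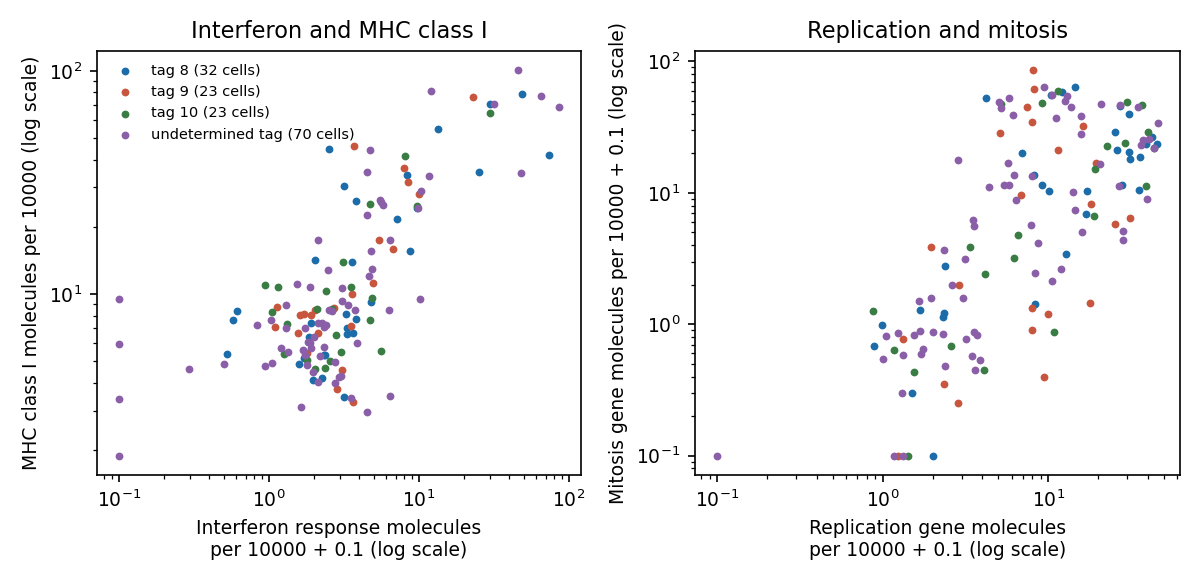
Each point is a gated cell of at least 5000 molecules, coloured by tag: left, interferon response against MHC class I molecules; right, replication against mitosis gene molecules, all per 10000 molecules of the cell on log scales, with 0.1 added except for MHC class I. Most cells lie near 2.70 interferon molecules, and a few of tag 8, tag 10 and undetermined tag lie above 25.

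Of 16 ligands and receptors that face immune cells, 12 were lower and 2 higher, with a median of -2.95. Cd274, which encodes PD-L1, had 12.9, 11.9, 5.11 and 11.1 CPM against 205, 347 and 228 (ratio -4.87, -5.48 to -3.999), and the gene of the other PD-1 ligand, Pdcd1lg2, had 0 molecules against 1645 in leukocytes. Cd47, the signal against phagocytosis, was lower at -2.60 (-2.64 to -2.56), with 66.2, 76.1, 70.2 and 70.1 CPM. The ectonucleotidase genes Entpd1 and Nt5e, which make adenosine, had at most 2.86 CPM in any tag group. Fas, the death receptor, had 0.476, 1.58 and 0 CPM against 29.5, 36.7 and 29.2. Nectin2, a ligand of TIGIT and CD226, was higher at 3.20 (2.62 to 3.68). Its relative Pvr had 77.1, 121 and 69.6 CPM and was lower at -1.47 (-1.71 to -1.04), but stood at 0.24 against T cells alone. Cd276, a B7 family gene, was higher at 1.80 (1.45 to 3.40) but was not called with TMM factors, at 1.22, or against C1q macrophages, at 0.75. The NKG2D ligand genes Raet1e and Ulbp1 had 3.33, 1.58 and 2.55 and 11.4, 0.792 and 4.47 CPM and were not called.

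Of 14 secreted factors compared, 8 were lower and 2 higher, with a median of -2.17. In the contrast with T cells alone 4 were lower and 5 higher, with a median of -0.31. Mif, a cytokine gene, had 975, 1019, 1129.5 and 1003 CPM against 201, 217 and 201 (ratio 2.28, 2.23 to 2.49), and Tgfb2 was higher at 3.20 (2.10 to 4.12) from 7.62, 7.92 and 6.39 CPM (2.77 and not called against T cells), while Tgfb1 was lower at -4.05 (-4.40 to -3.37). The chemokine genes Cxcl1 and Ccl2 stood at -6.21 and -6.33, with 33.3, 30.9 and 38.3 and 14.8, 11.9 and 13.4 CPM. Vegfa, the vessel growth factor, had 176, 270.2, 207 and 226 CPM against 381, 327 and 385 and was not called, and against T cells alone it stood at 1.75. Csf1, the macrophage growth factor, had 16.7, 2.38 and 3.19 CPM, highest in tag 8, and was lower at -4.09 (-4.12 to -1.79), but not called against C1q macrophages (-3.16) or T cells (-2.23). Galectin-1 (Lgals1) lay at the leukocyte level, with 0.12, and Lgals3 was lower at -1.07 (-1.52 to -1.06), although at 1.67 against T cells alone.

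Of 17 glycolysis and hypoxia genes, 13 were higher and none lower, with a median of 1.84, and 9 were higher with TMM factors. Tpi1, triosephosphate isomerase, had 1742, 1812, 1739 and 1892 CPM against 345, 317 and 302 (ratio 2.52, 2.34 to 2.53), Pgk1 stood at 2.40 (2.32 to 2.50), Pfkl, the liver-type phosphofructokinase, at 2.50 (2.23 to 2.94) and Gapdh at 1.84 (1.75 to 1.87). Bnip3, a mitophagy gene of the hypoxia response, had 543, 914, 713 and 625 CPM (ratio 2.60, 1.97 to 3.31), and Adm, adrenomedullin, 46.2, 88.7, 67 and 28.1 (ratio 2.75, 2.002 to 3.67), both highest in tag 9. The glucose and lactate carriers Slc2a1 (-0.08) and Slc16a3 (-0.30) were not called, and against T cells alone Slc16a3 stood at 1.32. Ldha was higher at 1.45 (1.40 to 1.59) and Hk2 at 1.14 (1.05 to 1.17), but with TMM factors they stood at 0.85 and 0.54, and neither kept its call against both comparators, with Hk2 at 0.82 against C1q macrophages and Ldha at 1.24 against T cells. The summed level of the list was 22804, 25435, 24690 and 24092 CPM in the 4 tag groups, and single cells of at least 5000 molecules ranged from 57.7 to 494 molecules per 10000, with a median of 214.

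Redox genes had no common direction, with 3 of 12 higher, 2 lower and a median of 0.01, which was -0.59 with TMM factors. Those counts lie near the 25.6% higher and 18.1% lower of all genes compared. Prdx1, a peroxiredoxin, was higher at 1.49 (1.48 to 1.56), but at 0.90 with TMM factors and 0.85 against C1q macrophages, and Nqo1, a quinone reductase, at 3.39 (2.63 to 3.48). Slc7a11, the cystine importer, had 16.2, 38 and 21.7 CPM against 188, 134 and 119 and was lower at -2.45 (-3.54 to -1.82), but stood at 1.28 against T cells alone. Genes that respond to tissue dissociation were lower in 6 of 10 cases, with a median of -2.30, and in 4 of 10 with a median of -0.94 against T cells alone. Examples were Junb at -3.57 (-3.65 to -3.29), Hspa1a at -5.91 (-6.56 to -5.19) and Egr1 at -3.87 (-5.08 to -3.30). Atf3 was lower at -2.35 (-2.35 to -2.08) but stood at 0.44 against T cells. Hsp90aa1 was higher at 1.49 (1.25 to 1.79), but not called with TMM factors, at 0.86, or against T cells, at 1.25. Hspa1b had 136 of its 379 molecules in 1 undetermined cell.

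In adhesion and matrix, 3 of 12 genes were higher and 3 lower, with a median of -0.29. Those counts lie near the 25.6% higher and 18.1% lower of all genes compared. Cdh2, N-cadherin, had 42.8, 34.9, 38.9 and 44.8 CPM against 0.955, 0.284 and 1.08 (ratio 5.49, 5.17 to 6.94), while Cdh1, E-cadherin, had at most 1.28 CPM and was lower. Sparc, a matrix protein gene, stood at 3.13 (3.05 to 3.72) and Mcam, the melanoma cell adhesion molecule, at 4.08 (3.71 to 4.37). Fn1, fibronectin, was lower at -3.43 (-3.61 to -2.31), but at 0.82 against T cells alone, and Alcam at -3.54 (-3.89 to -3.07). The integrin genes Itgav (0.60), Itgb1 (-0.02) and Itgb3 (0.33) did not reach 2-fold in every tag.

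**Figure D5:**
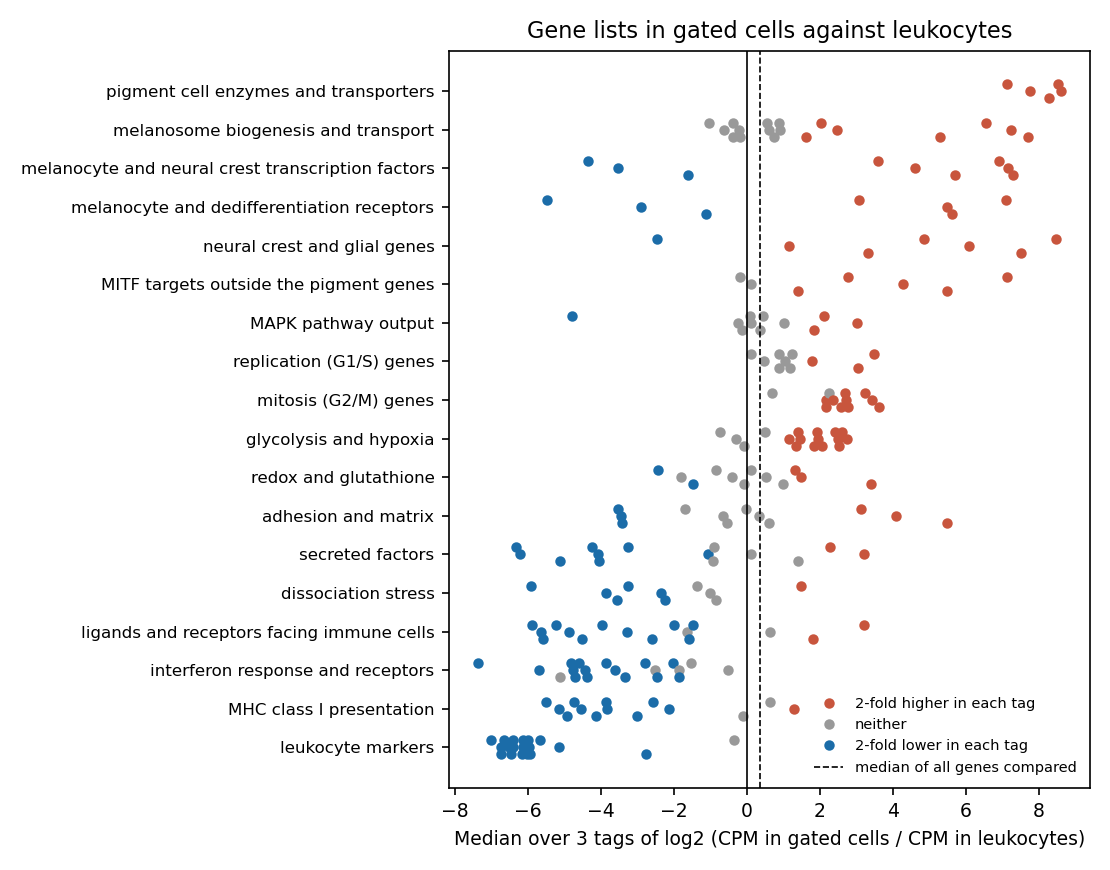
Median log2 ratio over 3 tags of CPM in gated cells to leukocytes, 1 point for each gene compared, in 18 lists; colours give the call and the dashed line is the median of all 12222 genes. Pigment enzymes lie between 7.12 and 8.59, mitosis and glycolysis genes mostly above 1, and MHC class I, interferon and leukocyte genes mostly below -2.

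Summed over the gated cells, transcripts of other cell types were low. The 19 leukocyte markers other than Ptprc summed to 298, 262 and 218 CPM in tags 8, 9 and 10 and 205 in the undetermined cells, against 20406, 20037 and 21275 CPM in leukocytes. Of these, 18 were lower, Ms4a1 was at 0, and Cd74 and H2-Aa had the largest counts, with 69.5, 67.4, 54.9 and 51.6 and 58.1, 59.4, 46.6 and 44.3 CPM. Thinned to 1000 molecules, 2.99% of gated cells held a Lyz2 molecule against 42.9% of leukocytes and 8.70% of T cells, where the gene is not known to be expressed. Unthinned, the order of gated cells and T cells was the opposite, at 60.5% and 27.9%, with median depths of 52915 and 3943 molecules. Per 10000 molecules of a cell, the leukocyte markers had a median of 2.25 over the 167 gated cells, from 0 to 36.5. The highest value was in a shallow cell of 2463 molecules. The 6 fibroblast markers came to 9.52 to 14.5 CPM, the 5 endothelial to 0.792 to 3.83, with Cdh5 at 0, and the 4 erythroid to 6.66 to 12.8, while Krt5, Krt1 and Krt10 of keratinocytes were at 0. Their part in the results was not tested. The genes with the lowest ratios were leukocyte genes too, such as Plbd1 (ratio -7.98, -8.97 to -7.01), Ms4a6d (ratio -7.86, -8.28 to -6.87), Nckap1l (ratio -7.78, -8.32 to -6.42), Gimap4 (ratio -7.67, -8.000 to -6.64) and Lpl, lipoprotein lipase (ratio -7.65, -9.07 to -7.05).

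The tags resembled each other in most of the genes with enough molecules to compare. Of 5753 genes with at least 30 molecules in each of the 4 tag groups, 100 (1.74%) differed at least 2-fold between any of the 3 tags, and the median gene differed 1.23-fold between its highest and lowest tag. This minimum leaves out genes with few molecules in 1 tag, such as Gbp2, at 77.1 CPM in tag 8 and 1.28 in tag 10. Among the 5 genes with the largest spread between tags were Cyr61, Cxcl10, Tk1 and Egr1. Cyr61, a matricellular growth factor gene, had 89.97 (77.6 to 104), 224 (199 to 252) and 24.3 (17.2 to 33.3) CPM and 105 in the undetermined cells, and the intervals of the 3 tags did not overlap. Its 5 highest cells, 3 of tag 9 and 2 undetermined, held 42.3% of the molecules. Tk1, thymidine kinase, had 137, 37.2, 141 and 101 CPM and was lowest in tag 9, as was the summed level of the replication genes. Egr1, an early response gene, had 91.9, 35.7, 26.8 and 38.9 CPM and was highest in tag 8. The undetermined cells stood 2-fold above all 3 tags in 1 gene, Yae1d1, of which 1 cell held 138 of 343 molecules, and 2-fold below them in none. With 25 to 34 cells in a tag and 1 tag for each unnamed genotype, these differences describe the cells captured.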

How the data were processed

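Unique molecules per cell and gene were used as deposited, as raw counts that the authors made with version 1.9.1 of BD's Rhapsody pipeline on GRCm38 with GENCODE annotation, per the file headers. GRCm39 appears in the submitters' processing notes; the build of the headers was used. The deposited tag call of each cell gave its tag, and multiplet calls were the treatment of doublets. No table column was left without a sample (0 columns).

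The gate was applied to the raw counts of 24510 genes. The members and gene lists were chosen with earlier results of these data known. Counts were summed per tag and class (CPM, with exact Poisson 95% intervals). A gene needed 30 molecules over both classes. A count of 0 was set to a floor of 3 counts, and such a bound was never called in the direction it could not show. C1q macrophages held at least 10 C1qa, C1qb and C1qc molecules and none of Cd3d, Cd3e and Cd3g, and T cells at least 2 of the latter and at most 2 of the former. Named genes were members of 25 lists, the 10 most abundant genes, those with the 10 highest and 10 lowest ratios, the 10 with the largest variance over mean, and the 5 with the largest spread between tags. The 4 gate genes and Ptprc were left out of the contrast. Of 262 list genes, 260 were in the table. Cells were thinned without replacement (seed 0) to 5000 molecules among gated cells and to 1000 between classes. At 1000 molecules 193 of 8335 leukocytes were left out and no gated cell.

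Alternatives used TMM factors (edgeR 4.0.16, R 4.3.3), scaling without mitochondrial and ribosomal protein genes, centring on the median gene, means over cells, thinned cells, no minimum, other comparators, Ptprc at 0, other gate limits and each tag left out. The scripts were tested on simulated data. Coordinates come from GENCODE on GRCm38, and promoters from RefSeq. Scripts ran under Python 3.11.15 with pandas 2.3.3, scipy 1.17.1, numpy 2.4.6 and, for figures, matplotlib 3.10.9. Genotypes were not compared. A few named genes are not reported here.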

Additional observations from a re-analysis of the deposited data

Results flagged for a closer look

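Signals of melanoma cells also lay in cells outside the gate. Of 199 cells that met the pigment sum and share, 18 exceeded the mitochondrial limit, with a median of 53.7% mitochondrial molecules and 11033.5 molecules per cell. They held at most 2 Ptprc molecules each. A further 11 cells passed the quality filters but held more Ptprc than the gate allows, up to 16 molecules, with a median depth of 59116 molecules and 1.91% pigment molecules. Whether these are melanoma cells with leukocyte transcripts or doublets was not tested.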

How the results depend on the processing

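Genes higher in gated cells than in leukocytes numbered 3128, and 1899 with TMM factors. These factors lower every ratio here, so the 1899 had to be among the 3128. With each cell thinned to 1000 molecules, 871 of 3873 genes compared were higher. The number ranged from 3137 to 3393 when a tag was left out, where the rule asks for 2-fold in fewer tags. The 2216 lower genes were 352 in thinned cells, where fewer genes can be compared. They were 2344 to 2520 when a tag was left out, again by the looser rule. The 167 gated cells became 111 with Ptprc at 0 and 85 without undetermined tags. The mean summed level of Sox10, Mitf, Tyr, Oca2, Slc45a2 and Slc24a5, 3609 CPM, was 4391.8 when scaled without mitochondrial and ribosomal protein genes. The undetermined share of gated cells, 49.1%, stayed between 46.3% and 55.0% over the other gates that keep such cells, which were added after seeing the data. Of the 10 genes with the largest variance over mean, 8 were among the first 10 at 2000 molecules.

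Among the 267 genes with a ratio, no called gene changed direction with means over cells or with Ptprc at 0. None did in thinned cells either, where 96 genes had no value. With a tag left out, or under scalings that shift all ratios by less than 2-fold, a called gene could not change direction. Only other comparators changed directions. Against T cells alone the sign turned for 13 of the 267, counting only genes called against leukocytes or against T cells. Of these the report names Atf3 (0.44), Fn1 (0.82), Ifitm3 (0.20), Lgals3 (1.67), Pvr (0.24), Rab32 (2.15), Slc16a3 (1.32), Slc7a11 (1.28), Vegfa (1.75) and Zeb2 (0.85). Sign changes of genes called in neither comparison were not counted. Against C1q macrophages alone Kit turned to 1.68. The cause was not tested. The ratios are matched by tag already. No paired analysis was possible because the contrast comes from no test and the labels give no replicate numbers.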
